A study of Homo sapiens with 8 samples.

Results

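Open chromatin was examined at 681 ATAC-seq peaks that lie in exons of noncoding RNAs, in Raji cells with a deleted super-enhancer and in wild-type Raji cells. They were taken from the 70312 peaks of the authors' deposited ATAC table by 1 rule, an annotation that starts with "non-coding". HOMER, the annotation tool, gives that class to a peak whose centre lies in an exon of a RefSeq noncoding transcript and not close enough to a start to be classed as a promoter. The rule used no measured value. Each peak was set beside the RNA-seq row of the gene whose start is nearest.

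Raji is a B cell line from a Burkitt lymphoma. In the RGS-SE knockout, Cas9 and a pair of guides were used to remove a super-enhancer region of chromosome 1, which the labels place at 192515157 to 192741754 (hg38). Knockout cells were single clones whose number the labels do not give, so genotype and clone cannot be told apart. Wild-type Raji cells, grown in the same medium, were the comparison. ATAC-seq, which reads where a transposase can enter chromatin, and poly(A)-selected RNA-seq were each made from 2 knockout and 2 wild-type libraries, called biological replicates in the labels. The deposited tables hold a mean, a fold change and its standard error for each peak or gene, with no value per library, so the spread between replicates enters only through that standard error.

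A long noncoding RNA is a transcript that is not translated. Some hold other molecules together in the nucleus, some carry small RNAs in their introns or exons, and for many the known event is the act of transcription at the locus rather than the RNA. Many start next to a coding gene, on the opposite strand and in the same open chromatin, so a peak at the start of a noncoding RNA is often shared with its neighbour. Protein-coding genes also give rise to transcripts without a reading frame, and pseudogenes are decayed gene copies that can still be transcribed.

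The peaks were a mixture of such transcripts. They fell in 641 distinct RefSeq transcripts, of which those of 673 peaks were found in the RefSeq gene table (GRCh38.p14). By the gene that owns the transcript, 329 peaks lay in noncoding RNA genes, 279 in transcripts without a reading frame of protein-coding genes and 65 in pseudogenes. The name "peaks in noncoding RNA genes" therefore fits 329 of the 681, and noncoding exons is used here for all 681. The gene with the nearest start was the owner of the transcript for 411 peaks and another gene for 262, and for 25 peaks it was a microRNA. There were 38 genes with more than 1 peak, which held 85 peaks. NEAT1 had 6 and KCNQ1OT1 had 5. None of the 681 lay in the targeted interval or within 1 Mb of it.

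The direction of change rests on the targeted interval. The authors' deposited tables do not name which genotype is on top of the fold change. Positive values are read here as higher in the knockout, because the peak at 192609103 to 192609836 on chromosome 1 then had a fitted normalised count of 0.186 in knockout cells and 622 in wild-type cells. If the sign were the other way, every direction given here would turn. The peak lies at the start of ENSG00000289995, a noncoding RNA of the super-enhancer, but RefSeq holds no transcript there and HOMER called it intergenic, so it was not among the 681. The RNA of ENSG00000289995 was lower, at -6.72 log2 units (SE 2.28, adjusted p 0.0211, DESeq2's Wald test) in the authors' deposited table.

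Over the libraries, the summed mean normalised count was 1.99e+07 over all ATAC peaks and 3.28e+07 over all genes, and the depth of each library is unknown. Markers of B cells were all 6 measured and summed to 2053 CPM in the RNA table, where CPM scales each mean so that the table sums to 1e+06. MS4A1, which encodes CD20, and CD79B, a chain of the B cell receptor complex, passed the threshold, with log2 fold changes of 1.06 and -0.78 given in the authors' deposited table. The 1 noncoding-exon peak of a B cell marker, in the last exon of a transcript of PAX5, a B cell identity factor, was lower at -1.12 (SE 0.22) in the authors' deposited table. PAX5 RNA had -0.07 there and did not pass (adjusted p 0.832, DESeq2's Wald test). T and NK cell markers summed to 0.249 CPM, with 5 of 7 genes absent from the table, and myeloid markers to 1.60 CPM. Epithelial, fibroblast and erythroid markers summed to 6.30 CPM, almost all of it COL1A1, a collagen gene with a log2 fold change of 1.10 in the authors' deposited table. In bulk libraries, fewer cells of a type and less RNA or open chromatin per cell cannot be told apart.

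Sequences from 6 of the peaks are shown because their changes are the ones described most fully here, 3 higher and 3 lower in the knockout. Each is the 300 bases round the centre of the peak, read from the forward strand of the hg38 genome, with capitals for matches, on either strand, to the motifs named later. The peaks of LINC01679, FAM30A and DHRS4-AS1 were higher in the knockout and those of C1RL-AS1, CALHM2 and DOCK8-AS1 lower.
LINC01679, chr21:43361788-43362087: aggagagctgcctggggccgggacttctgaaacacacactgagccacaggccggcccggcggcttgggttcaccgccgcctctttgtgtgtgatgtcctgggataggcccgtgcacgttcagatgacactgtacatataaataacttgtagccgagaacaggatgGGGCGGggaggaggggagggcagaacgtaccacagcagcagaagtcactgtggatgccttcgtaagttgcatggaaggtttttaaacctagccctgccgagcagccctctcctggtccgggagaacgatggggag
FAM30A, chr14:105928423-105928722: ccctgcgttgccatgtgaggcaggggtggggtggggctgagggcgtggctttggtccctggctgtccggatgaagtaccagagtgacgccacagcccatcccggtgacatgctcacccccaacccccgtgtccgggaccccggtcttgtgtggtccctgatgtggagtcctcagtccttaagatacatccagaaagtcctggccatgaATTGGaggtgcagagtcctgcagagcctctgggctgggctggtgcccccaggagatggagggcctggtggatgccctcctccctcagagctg
DHRS4-AS1, chr14:23953813-23954112: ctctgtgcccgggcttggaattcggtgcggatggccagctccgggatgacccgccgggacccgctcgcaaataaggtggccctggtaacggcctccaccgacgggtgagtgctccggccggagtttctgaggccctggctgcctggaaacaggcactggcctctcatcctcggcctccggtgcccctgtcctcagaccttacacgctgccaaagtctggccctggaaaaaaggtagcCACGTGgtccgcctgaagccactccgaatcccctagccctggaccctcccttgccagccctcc
C1RL-AS1, chr12:7108536-7108835: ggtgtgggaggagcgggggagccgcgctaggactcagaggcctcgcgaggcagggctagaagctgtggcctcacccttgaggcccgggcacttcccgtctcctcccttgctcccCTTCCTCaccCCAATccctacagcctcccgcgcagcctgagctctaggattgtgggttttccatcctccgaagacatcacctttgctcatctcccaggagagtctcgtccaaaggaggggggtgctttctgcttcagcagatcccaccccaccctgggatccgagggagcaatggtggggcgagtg
CALHM2, chr10:103452103-103452402: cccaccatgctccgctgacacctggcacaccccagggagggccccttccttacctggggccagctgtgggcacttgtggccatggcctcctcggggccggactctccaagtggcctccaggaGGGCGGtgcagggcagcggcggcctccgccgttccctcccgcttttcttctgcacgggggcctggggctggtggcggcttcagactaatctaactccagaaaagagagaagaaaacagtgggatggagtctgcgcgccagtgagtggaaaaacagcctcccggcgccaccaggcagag
DOCK8-AS1, chr9:215086-215385: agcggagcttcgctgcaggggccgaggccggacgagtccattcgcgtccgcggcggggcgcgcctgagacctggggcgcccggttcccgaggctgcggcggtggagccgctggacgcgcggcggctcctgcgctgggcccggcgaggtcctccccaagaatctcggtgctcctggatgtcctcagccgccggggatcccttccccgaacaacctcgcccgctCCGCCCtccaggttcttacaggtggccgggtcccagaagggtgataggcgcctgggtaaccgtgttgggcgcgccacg

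Peaks in noncoding exons changed about equally often in each direction. With an adjusted p under 0.05 (DESeq2's Wald test) in the authors' deposited table, 108 of 681 were higher in the knockout and 104 lower. That is 15.9% higher and 15.3% lower, against 20.4% and 15.5% of all 70312 peaks, and 31.1% against 35.9% in either direction. The median log2 fold change was -0.05 in noncoding exons and -0.01 over all peaks. By at least 1 log2 unit, 51 of the 108 rose and 29 of the 104 fell, or 7.49% and 4.26% of noncoding exons, against 11.01% and 5.79% of all peaks. Large changes in either direction were thus a smaller share here than in the whole table. Coding exons had 91 of 1324 up and 60 down by as much, and gene ends 94 of 1330 and 57. The smaller share was therefore not particular to noncoding exons. The log2 fold changes of noncoding exons ran between -7.85 and 3.60, beside -11.71 and 10.86 over all peaks in the authors' deposited table. Noncoding exons had a median mean normalised count of 190.3, against 110.8 over all peaks, and a median SE of 0.19 against 0.25, so smaller changes could pass there.

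**Figure D1:**
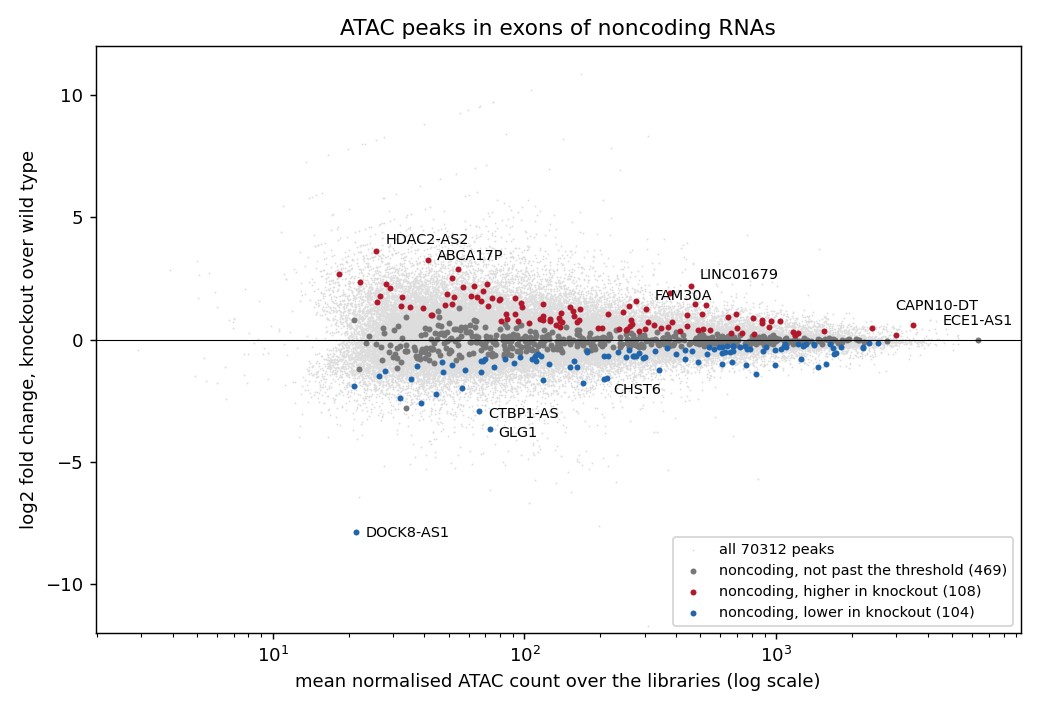
Log2 fold change (knockout over wild type) of each ATAC peak against its mean normalised count over the libraries (log scale), in the authors' deposited table. Light grey dots are all 70312 peaks, and the 681 in noncoding exons are red (108 higher in the knockout), blue (104 lower) or dark grey (469 not past the threshold). LINC01679 stands out among peaks with a high mean, and DOCK8-AS1 is the lowest.

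By the gene that owned the transcript, noncoding RNA genes and pseudogenes had shares near those of all peaks (20.4% higher and 15.5% lower). In noncoding RNA genes, 64 of 329 peaks were higher and 51 lower, or 19.5% and 15.5%. In pseudogenes 14 of 65 were higher and 10 lower, or 21.5% and 15.4%. In transcripts of protein-coding genes, 29 of 279 were higher and 42 lower, or 10.4% and 15.1%. Among noncoding RNA genes, those named as intergenic (LINC) had 25 of 94 higher and 11 lower, or 26.6% and 11.7%, with a median log2 fold change of 0.08 in the authors' deposited table. Antisense RNAs had 14 of 103 higher and 18 lower, or 13.6% and 17.5%, with a median of -0.09 there. Genes with only a LOC number had 12 of 43 higher and 13 lower, or 27.9% and 30.2%. Differences between these kinds were not tested, since peaks of the same libraries are not replicates.

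Distance from a start went with direction in the same way as over all peaks. Within 1 kb of the nearest start, 27 of 264 peaks in noncoding exons were higher and 49 lower, or 10.2% and 18.6%, against 14.7% and 18.99% of all 11816 peaks at that distance. Farther out, 81 of 417 were higher and 55 lower, or 19.4% and 13.2%, against 21.5% and 14.8% of all 58496 such peaks. The median mean normalised count was 579 in the near group and 103 in the far group. First exons had 31 of 271 higher and 49 lower, and later exons 77 of 410 higher and 55 lower. Coding exons, the most similar class, had 218 of 1324 higher and 197 lower, gene ends 237 of 1330 and 204, and promoters 1198 of 8420 and 1681.

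**Figure D2:**
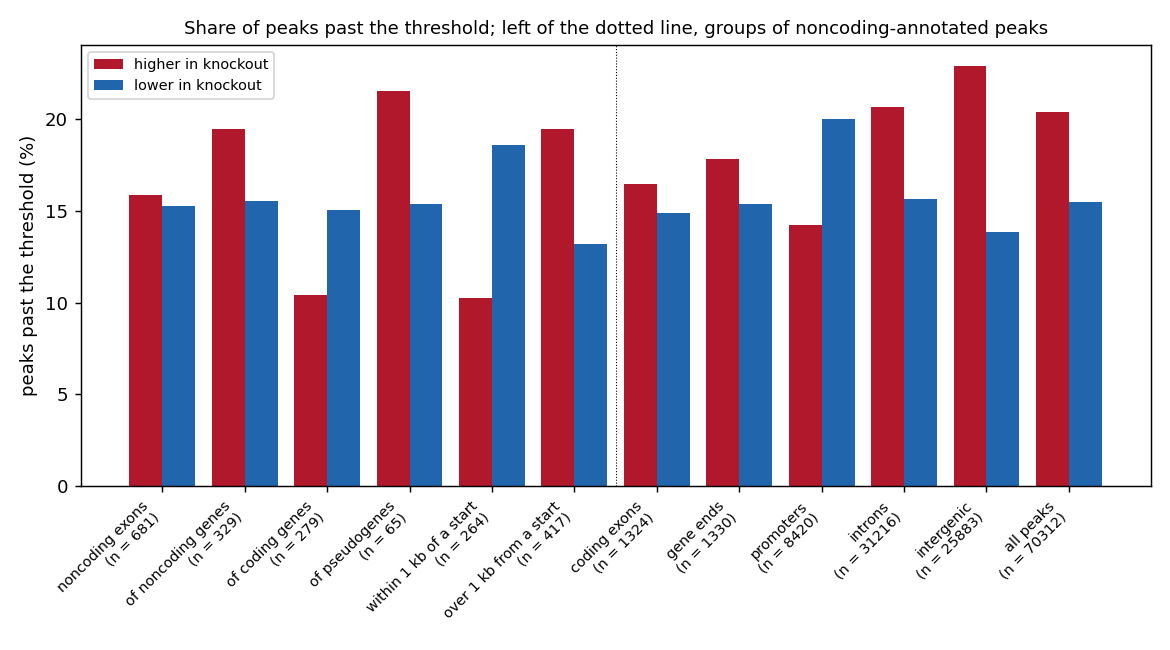
Percent of peaks past the threshold (DESeq2 Wald adjusted p under 0.05 in the authors' deposited table), higher in the knockout (red) and lower (blue), by group. The first bars are the 681 noncoding exons (15.9% higher, 15.3% lower) and their groups, then other HOMER classes, with all peaks last (20.4% and 15.5%). Peaks near a start and in coding genes have the taller blue bars, those far from a start and in noncoding genes the taller red ones.

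Of the 10 largest increases among peaks of at least median signal, 7 were in noncoding RNA genes, and 5 of the 10 largest decreases, where such genes owned 48.3% of the 681 peaks. LINC01679, a noncoding RNA of chromosome 21, led the increases. Its peak at 43361213 to 43362661 (hg38) covers the first of 2 exons and had a fitted normalised count of 749 in knockout cells and 166 in wild-type cells. This was a rise of 2.18 log2 units (SE 0.13, adjusted p 4.87e-58, DESeq2's Wald test) in the authors' deposited table, or 4.53-fold, and the 100 nearest peaks had a median of 0.01. RNA of LINC01679 had 45.1 fitted normalised counts in knockout cells and 1.36 in wild-type cells, a rise of 5.06 (SE 1.33, adjusted p 0.00151, DESeq2's Wald test) in the authors' deposited table. Peak and RNA were therefore both higher in the knockout, though the RNA call was lost with scaled statistics (adjusted p 0.275). Scaled statistics divide each Wald statistic by the robust SD of all of them, 2.46 in ATAC and 1.70 in RNA.

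DHRS4-AS1 is antisense to DHRS4, which encodes a retinol dehydrogenase, and starts beside it. Its peak on chromosome 14 at 23953445 to 23954479 covers exon 1 of 2 and had a fitted normalised count of 417 in knockout cells and 139 in wild-type cells. This was a rise of 1.58 (SE 0.16, adjusted p 3.09e-20, DESeq2's Wald test) in the authors' deposited table. DHRS4 itself, the gene with the nearest start, had 22.0 fitted RNA counts in knockout cells and 237 in wild-type cells, at -3.43 log2 units (SE 0.49, adjusted p 1.63e-10, DESeq2's Wald test) in the authors' deposited table. RNA of DHRS4-AS1 had 78.5 fitted counts in knockout cells and 28.5 in wild-type cells, at 1.46 (adjusted p 0.123, DESeq2's Wald test) in the authors' deposited table, which did not pass. The open site was thus higher while the coding RNA beside it was lower. DHRS4 has near-identical copies next to it, and the strand setting of the read counting is not given in the sources used here, so reads of the 2 strands and of the copies may not be fully told apart.

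FAM30A is a noncoding RNA made in B cells from the immunoglobulin heavy chain region of chromosome 14. Its peak at 105928002 to 105929142, in the last of 6 exons, had a fitted normalised count of 426 in knockout cells and 181 in wild-type cells. It rose by 1.23 (SE 0.16, adjusted p 2.21e-13, DESeq2's Wald test) in the authors' deposited table. FAM30A RNA had 2805 fitted counts in knockout cells and 1842 in wild-type cells, a rise of 0.61 (SE 0.17, adjusted p 0.00335, DESeq2's Wald test) in the authors' deposited table that was lost with scaled statistics (adjusted p 0.341). Both measures of FAM30A were higher in the knockout, the RNA by less.

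The remaining large increases had little RNA or an RNA that did not pass. LINC01973 on chromosome 17 rose by 1.46, and LINC00968 and LINC00861 on chromosome 8 by 1.40 and 1.04 in the authors' deposited table. Their 100 nearest peaks had medians of 0.05, 0.40 and -0.71, in that order. RNA rows of these genes had at most 1.75 fitted counts in knockout cells and no adjusted p. TSPAN5-DT, divergent from the tetraspanin gene TSPAN5, rose by 1.13 in the authors' deposited table. That call was lost with scaled statistics (adjusted p 0.122). DEDD2 encodes a death effector domain protein, and a peak in its last exon rose by 1.39 (SE 0.17) in the authors' deposited table while its RNA had -0.54 (adjusted p 0.399, DESeq2's Wald test). ABCA15P and SMG1P3 are pseudogenes of a lipid transporter and of an mRNA surveillance kinase, and their peaks gained 1.89 and 1.05 log2 units in the authors' deposited table. Both lie in the first 25 Mb of chromosome 16, where reads of related copies may be shared and where neighbouring peaks were also higher, with local medians of 0.95 and 0.97.

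Among the largest decreases at the same signal, CHST6, a sulfotransferase gene of keratan sulfate synthesis, had the lowest value. A peak in exon 2 on chromosome 16 at 75490363 to 75490876 had a fitted normalised count of 102 in knockout cells and 312 in wild-type cells. It fell by 1.61 log2 units (SE 0.19, adjusted p 1.04e-15, DESeq2's Wald test) in the authors' deposited table, where the local median was -0.67. CHST6 RNA had 21.2 fitted counts in knockout cells and 113 in wild-type cells, and fell by 2.42 (SE 0.66, adjusted p 0.00233, DESeq2's Wald test) in the authors' deposited table. With scaled statistics the RNA call was lost (adjusted p 0.310).

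LINC00327 on chromosome 13, LINC00537 on chromosome 9 and SPATA41 on chromosome 15, all noncoding RNA genes, had -1.56, -1.40 and -1.26 log2 units in the authors' deposited table, with local medians of -0.05, -0.15 and -0.15. LINC00537 lies among duplicated sequence near the centromere, where reads may be shared between copies. LINC00327 and LINC00537 had no RNA row, and SPATA41 RNA had 0.45 (adjusted p 0.926, DESeq2's Wald test) in the authors' deposited table. On the short arm of chromosome 9, 3 of the largest decreases were transcripts of coding genes. UHRF2, an E3 ligase that binds hydroxymethylated DNA, had -1.13, SNAPC3, a subunit of the complex that starts small nuclear RNA genes, -1.06, and KDM4C, a histone H3K9 demethylase, -1.01 in the authors' deposited table. Their RNAs had -0.38, -0.63 and -0.85 there, of which SNAPC3 (adjusted p 0.0347, DESeq2's Wald test) and KDM4C (1.22e-04) passed. Their neighbourhoods were as low, with local medians of -1.05, -1.07 and -1.04 in ATAC. In RNA, the 100 nearest tested genes had medians of -0.69 round SNAPC3 and -0.77 round KDM4C. Both RNA calls ended once these were subtracted (adjusted p 0.917 for SNAPC3 and 0.875 for KDM4C) and with scaled statistics (0.615 and 0.136). On chromosome 16, LOC102724467, LOC100505942 and DPEP2, a dipeptidase gene, had -1.02, -0.995 and -0.93 in the authors' deposited table, with local medians between -0.61 and -0.52.

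**Figure D3:**
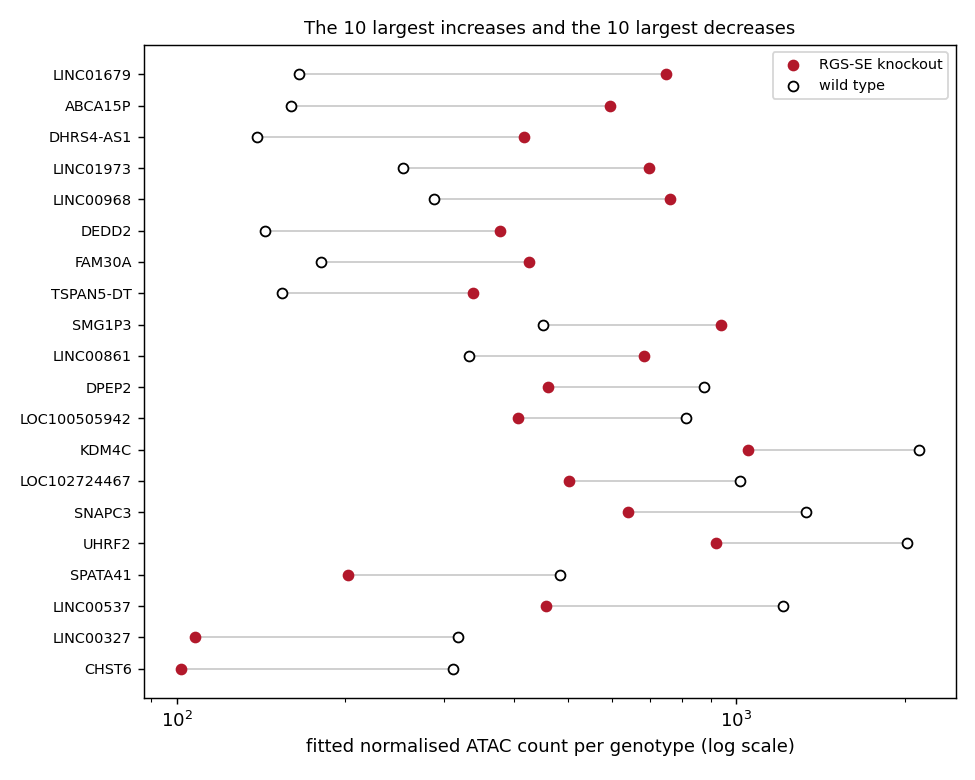
Fitted normalised ATAC count (log scale) in RGS-SE knockout cells (red) and wild-type cells (open) for the 10 largest increases and the 10 largest decreases among noncoding exons of at least median signal. Points are computed from the mean and fold change in the authors' deposited table and carry no error per genotype. LINC01679 had 749 counts in knockout cells and 166 in wild-type cells, and CHST6 102 in knockout cells and 312 in wild-type cells.

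Larger folds were found below the median signal, and these were picked after their values were seen. DOCK8-AS1 is antisense to DOCK8, an exchange factor needed for lymphocyte migration. Its peak on chromosome 9 at 214983 to 215487 had 0.185 fitted counts in knockout cells and 42.8 in wild-type cells, and its -7.85 (SE 1.52, adjusted p 2.22e-06, DESeq2's Wald test) in the authors' deposited table was second lowest of all 70312 peaks. The fold of a peak with almost no reads in 1 genotype depends on the fit and is no bound, and the call was lost with scaled statistics (adjusted p 0.359). DOCK8 RNA was lower too, at -1.01 (adjusted p 7.91e-10, DESeq2's Wald test) in the authors' deposited table, and the local median of ATAC peaks was -1.08. CTBP1-AS, antisense to a transcriptional corepressor gene, had 15.6 fitted counts in knockout cells and 117 in wild-type cells, and an exon of GLG1, a Golgi glycoprotein gene, had 10.6 in knockout cells and 135 in wild-type cells. HDAC2-AS2, antisense to a histone deacetylase gene, had 47.7 in knockout cells and 3.92 in wild-type cells, at 3.60 (SE 0.67, adjusted p 7.21e-07, DESeq2's Wald test) in the authors' deposited table. RNA of CTBP1-AS and HDAC2-AS2 did not pass, with adjusted p of 0.548 and 0.928 by DESeq2's Wald test.

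The 5 peaks with the highest signal had log2 fold changes of at most 0.61 in the authors' deposited table. ECE1-AS1, antisense to an endothelin-converting enzyme gene, held the highest mean of all 70312 peaks. It had 6360 fitted counts in knockout cells and 6363 in wild-type cells, at 0.00 log2 units (SE 0.03, adjusted p 0.992, DESeq2's Wald test) in the authors' deposited table. CAPN10-DT, divergent from a calpain gene, rose by 0.61 (SE 0.05) and DUSP22, a phosphatase gene, by 0.18 (SE 0.05) in the authors' deposited table. After centring on their neighbours these were -0.28 and -0.24, so their direction turned. DUSP22 also turned with chromosome centring, to -0.18. ANKRD10 had -0.06 and did not pass, and MZF1-AS1, beside a zinc finger gene, had -0.14 and passed in the authors' deposited table.

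Changes in noncoding exons partly followed stretches of chromosome in which most peaks moved together. Where the median log2 fold change of the 100 nearest peaks was at least 0.3, 31 of 47 noncoding exons were higher, 0 were lower and 16 did not pass. Over all peaks in such places, 57.8% were higher and 3.82% lower, beside 66.0% and 0% here. Where the local median was -0.3 or less, 1 of 26 was higher, 21 were lower and 4 did not pass. There 80.8% of noncoding exons and 56.1% of all peaks were lower, and 3.85% and 6.11% higher. In between, 76 of 608 were higher and 83 lower, or 26.2% in either direction, against 32.0% of all peaks in such places. Both kinds of shifted place together held 53 of the 212 changed noncoding exons. On chromosome 9 below 30 Mb, all 6 noncoding exons were lower, where all peaks had a median of -1.12, and on chromosome 16 below 25 Mb 12 of 13 were higher, where it was 0.99. On chromosome 16 from 60 to 90 Mb 10 of 12 were lower, and on chromosome 8 below 45 Mb 6 of 7 were higher, beside medians of -0.58 and 0.86 over all peaks. On chromosome 6 from 70 to 170 Mb 7 of 13 were higher and 6 did not pass, beside 0.57. Over all peaks of these stretches, in the order given, 68.3% were lower, 79.9% higher, 59.1% lower, 69.9% higher and 52.7% higher. Most called noncoding exons in these places had the direction of their neighbours, but LINC00861 was higher where its neighbours were lower. These stretches were picked with earlier results of the data known, and the part of the neighbourhood in each result was not tested.

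Of the 20 leading peaks, 16 still passed in the same direction after the median of their neighbours was subtracted. LINC01679 kept 2.16, DHRS4-AS1 had 1.70, LINC00327 -1.51 and LINC00537 -1.25. LINC00861 had 1.75, above its 1.04 in the authors' deposited table, since its neighbours had a median of -0.71. The 4 that did not pass were SMG1P3, UHRF2, SNAPC3 and KDM4C, with centred values between -0.08 and 0.09.

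**Figure D4:**
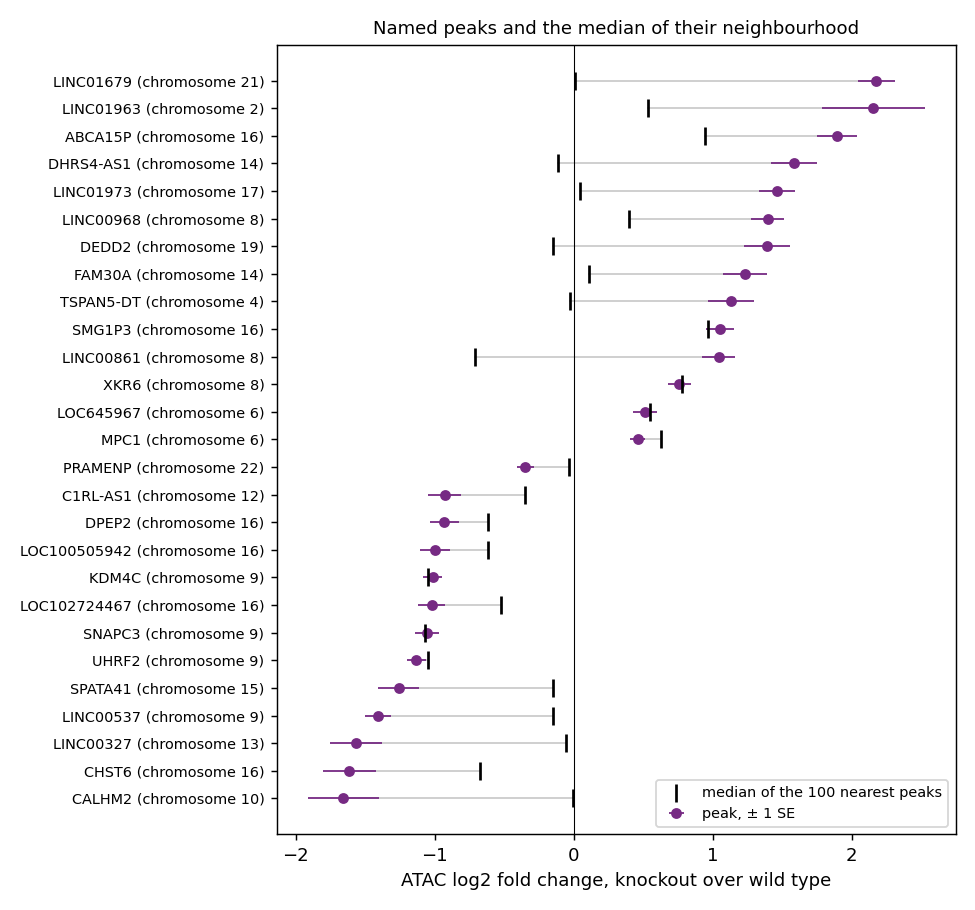
ATAC log2 fold change (knockout over wild type) of named peaks in noncoding exons (points, with 1 SE from the authors' deposited table) and the median of their 100 nearest peaks (bars). LINC01679, DHRS4-AS1, LINC00327 and LINC00537 lie far from bars near 0, while UHRF2, SNAPC3, KDM4C and SMG1P3 lie on theirs.

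The RNA row of the same gene name was the next comparison. Of the 681 peaks, 448 had such a row, for 419 genes, and 350 genes were tested in the authors' deposited table. By DESeq2's Wald test, RNA of 37 genes was higher in the knockout and of 42 lower. That is 22.6% changed, against 24.6% of the 11117 tested genes named by any peak and 19.2% of all 17013 tested genes (9.89% higher, 9.28% lower). The share for genes near noncoding exons thus lay between the other shares, and no difference was tested. Of 377 peaks with a tested row, peak and RNA both passed for 30, in the same direction for 24 and in opposite directions for 6. These are 6.37% and 1.59% of the pairs, against 10.0% and 2.66% over all peaks with a tested row. The same direction was seen in 80.0% of the pairs in which both passed, against 79.0% over all peaks.

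By the gene that owns the transcript, 390 genes were tested, with 42 higher and 36 lower. Noncoding RNA genes had 11 of 124 higher and 10 lower, protein-coding genes 30 of 235 and 23, and pseudogenes 1 of 31 and 3. In either direction these are 16.9%, 22.6% and 12.9%, against 19.2% of all tested genes. A row for the RNA was found for 173 of the 301 noncoding RNA genes and for 247 of the 266 protein-coding genes. The median tested noncoding RNA gene had 23.2 normalised counts and the median protein-coding gene 1073, not corrected for length. Poly(A) selection works against noncoding RNAs without a tail, and its part in these counts was not tested. RN7SL2 had 2903 CPM and RPPH1 301 CPM.

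Of the 12 same-direction pairs with the smallest adjusted p of the peak, 5 are given above and 7 follow. C1RL-AS1 is antisense to a complement protease gene. Its peak on chromosome 12 at 7107932 to 7109438 had 337 fitted counts in knockout cells and 642 in wild-type cells, at -0.93 (SE 0.12, adjusted p 2.99e-13, DESeq2's Wald test) in the authors' deposited table. C1RL-AS1 RNA had 275 fitted counts in knockout cells and 906 in wild-type cells, at -1.72 (SE 0.24, adjusted p 7.03e-11, DESeq2's Wald test) in the authors' deposited table. Both were lower, and the RNA call was kept with scaled statistics (adjusted p 0.00191) while that of the peak was not (0.0501). The neighbourhood of C1RL-AS1 was lower too, with local medians of -0.35 in ATAC and -0.36 in RNA. CALHM2, a calcium homeostasis channel gene of chromosome 10, had 57.2 fitted ATAC counts in knockout cells and 180 in wild-type cells at 103451771 to 103452734. CALHM2 RNA had 0.479 in knockout cells and 99.7 in wild-type cells, at -7.70 log2 units (SE 1.60, adjusted p 2.77e-05, DESeq2's Wald test) in the authors' deposited table, which is no bound since knockout cells had almost no reads. The scaled statistics ended both CALHM2 calls (adjusted p 0.150 and 0.0892).

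LINC01963 on chromosome 2 had 93.4 fitted ATAC counts in knockout cells and 21.0 in wild-type cells, and its RNA had 608 in knockout cells and 360 in wild-type cells. Both were higher, by 2.16 and 0.76 in the authors' deposited table, and the local median was 0.53. With scaled statistics the LINC01963 calls ended (adjusted p 0.247 for the peak and 0.615 for the RNA). MPC1, which carries pyruvate into mitochondria, had 2791 fitted ATAC counts in knockout cells and 2026 in wild-type cells, and its RNA had 1969 in knockout cells and 648 in wild-type cells. The MPC1 peak rose by 0.46, and was at -0.17 after local centring, while the RNA rose by 1.60 (SE 0.19, adjusted p 4.80e-15, DESeq2's Wald test) in the authors' deposited table. LATS1 is a Hippo pathway kinase gene whose start lies nearest a peak in LOC645967, and that peak rose by 0.52 and LATS1 RNA by 1.52 in the authors' deposited table. The LOC645967 peak was at -0.04 after local centring. XKR6, of the XK family of membrane proteins, rose by 0.76 in ATAC and 1.22 in RNA there (adjusted p of the RNA 0.0421, DESeq2's Wald test), and its peak was at -0.02 after local centring. The XKR6 RNA call ended with scaled statistics (adjusted p 0.644), local centring (0.539) and chromosome centring (0.140). PRAMENP, a pseudogene, had -0.35 and -0.82 in the authors' deposited table. Of these 12 pairs, 7 kept their RNA call after local centring, and SNAPC3, KDM4C, XKR6, LINC01963 and PRAMENP did not (adjusted p between 0.0693 and 0.917). Among those 7, the MPC1 peak then passed in the opposite direction and the LOC645967 peak no longer passed. LINC01679, FAM30A, CHST6, C1RL-AS1 and CALHM2 kept both calls in the same direction. Of the 24 same-direction pairs, the RNA row belonged to the gene that owns the transcript in 16, and 5 kept their RNA call with scaled statistics.

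**Figure D5:**
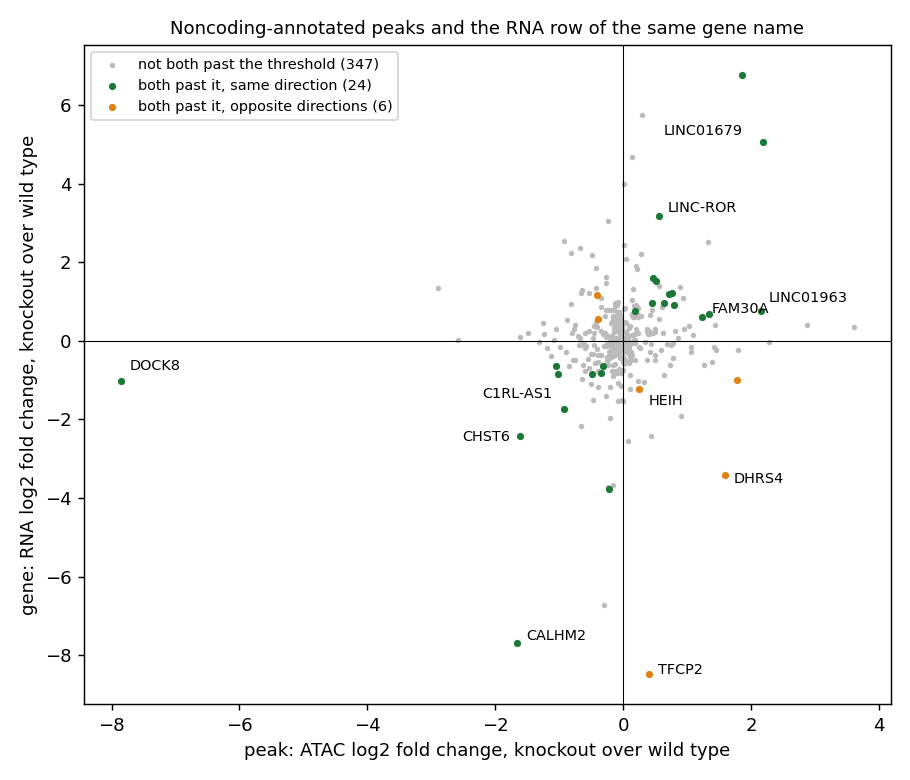
RNA log2 fold change of the gene with the nearest start against the ATAC log2 fold change of the peak (both knockout over wild type, the authors' deposited tables), for the 377 noncoding-exon peaks with a tested RNA row. Green points passed in both in the same direction (24), orange points in opposite directions (6), and 347 did not pass in both. LINC01679 lies at 2.18 and 5.06, and DHRS4 at 1.58 and -3.43.

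The opposite pairs were 6, with DHRS4 first. PPP1R2, an inhibitor of protein phosphatase 1, had an ATAC log2 fold change of -0.41 and an RNA value of 1.16 (SE 0.16, adjusted p 1.10e-10, DESeq2's Wald test) in the authors' deposited table. LINC-PINT, a noncoding RNA induced by p53, had -0.40 in ATAC and 0.56 in RNA in the authors' deposited table. HEIH, a noncoding RNA first described in liver cancer, had 0.25 in ATAC and -1.22 in RNA there. For the others the RNA belonged to a gene that does not own the transcript, with the peak at offsets of -15394 and -119728 bp from its start. A peak in the last exon of POU6F1 had 0.41 and was paired with TFCP2, a transcription factor gene whose RNA had 5.25 fitted counts in knockout cells and 1884 in wild-type cells, at -8.49 (SE 0.50, adjusted p 5.75e-62, DESeq2's Wald test) in the authors' deposited table. POU6F1 RNA itself had -1.14 (adjusted p 0.264, DESeq2's Wald test) there. A peak in ATP9B, a flippase gene, had 1.77 and was paired with NFATC1, a distant gene whose RNA had -0.99 in the authors' deposited table. The ATAC calls of PPP1R2, LINC-PINT, HEIH, POU6F1, ATP9B, PRAMENP, LOC645967, DUSP22 and MZF1-AS1 ended both with scaled statistics and in a test against a 1.5-fold change.

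Among 28 snoRNA host genes, whose introns carry guide RNAs for ribosomal RNA, 3 of 27 tested RNAs were higher and 3 lower. That is 11.1% each way, close to the 9.89% and 9.28% of all tested genes. Their median log2 fold change was 0.16, against 0.02 over all tested genes. SNHG3 rose by 0.83, SNHG5 by 0.62 and SNHG14 by 0.44 in the authors' deposited table, and SNHG7 had -0.85, GAS5 -0.44 and SNHG17 -0.43. GAS5 and SNHG17 passed narrowly there (adjusted p 0.0493 and 0.0479, DESeq2's Wald test). The SNHG17 RNA call ended with scaled statistics (adjusted p 0.660) and with local centring (0.102). SNHG5 was at -0.20 (SE 0.17) after the median of its 100 nearest tested genes was subtracted. Its sign thus turned, but by little more than the SE. The 2 noncoding-exon peaks of this list, in SNHG4 and SNHG17, did not pass, at -0.21 and -0.20 in the authors' deposited table.

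MicroRNA host genes had 8 of 19 tested RNAs higher and 2 lower, or 42.1% and 10.5% beside 9.89% and 9.28% of all tested genes, with a median of 0.69. MIR155HG, the precursor of miR-155 that is known as an oncogene in B cells, had 901 fitted RNA counts in knockout cells and 256 in wild-type cells, a rise of 1.81 (SE 0.25, adjusted p 2.10e-11, DESeq2's Wald test) in the authors' deposited table. MIR193BHG rose by 1.80 (0.92 after the same centring on neighbouring genes), MIR3142HG, which hosts miR-146a, by 1.69, and MIR17HG, the precursor of the miR-17 to miR-92a cluster, by 0.69 in the authors' deposited table. MIRLET7BHG and MIR600HG had -2.69 and -0.91 there. Of 5 noncoding-exon peaks in this list, 1 was higher and 0 lower, beside 20.4% and 15.5% of all peaks, with a median of -0.25. The higher peak lies in DLEU2, which hosts the miR-15a and miR-16-1 pair lost in chronic lymphocytic leukaemia. It rose by 1.44 (SE 0.39, adjusted p 0.00117, DESeq2's Wald test) in the authors' deposited table while DLEU2 RNA had 0.07 (0.918).

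Nuclear and abundant long noncoding RNAs had 5 of 22 tested RNAs higher and 0 lower, with a median of 0.20. That is 22.7% higher, beside 9.89% of all tested genes, and 9.28% of all were lower. MALAT1, a splicing-speckle RNA, had 126109 fitted counts in knockout cells and 59769 in wild-type cells, a rise of 1.08 (SE 0.15, adjusted p 1.78e-10, DESeq2's Wald test) in the authors' deposited table. NORAD, which binds Pumilio proteins, rose by 0.78 in the authors' deposited table. NEAT1, the scaffold of paraspeckles, rose by 0.48 there and passed narrowly (adjusted p 0.0444, DESeq2's Wald test). None of the 6 NEAT1 peaks passed, with log2 fold changes between -0.43 and 0.07 in the authors' deposited table. Of 19 noncoding-exon peaks in this list, 1 was higher and 4 lower, or 5.26% and 21.1% beside 20.4% and 15.5% of all peaks, with a median of -0.04. TERC, the telomerase RNA, was lower at -0.40 (SE 0.10, adjusted p 1.76e-04, DESeq2's Wald test) in the authors' deposited table. MIAT had 1 peak lower at -0.29 and 1 higher at 0.46 in the same last exon, and of the 5 peaks of KCNQ1OT1, an imprinted antisense RNA, 1 passed, at -0.69 in the authors' deposited table. The ATAC calls of TERC, DLEU2 and both MIAT peaks ended with scaled statistics and in the 1.5-fold test.

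Noncoding RNAs described in B cells and lymphoma had 7 of 26 tested RNAs higher and 5 lower, or 26.9% and 19.2% beside 9.89% and 9.28% of all tested genes, with a median of 0.04. This list shares 7 of its 38 genes with the lists before it, so MIR155HG, MIR17HG, MIR3142HG and LINC-PINT among the 7 higher RNAs and GAS5 among the 5 lower ones are counted more than once. PCED1B-AS1 had 625 fitted counts in knockout cells and 2482 in wild-type cells, at -1.99 (SE 0.23, adjusted p 1.90e-15, DESeq2's Wald test) in the authors' deposited table. LINC02397 had -1.18, LINC00957 -2.35 and PVT1, the neighbour of MYC, -0.86 in the authors' deposited table, and PVT1 was at -0.15 after that centring. LINC00158 rose by 1.56 and LINC00926 by 0.61 there. Of 10 noncoding-exon peaks in this list, 2 were higher and 1 lower (over all peaks 20.4% and 15.5%), the higher ones in LINC00861 and DLEU2. The genes of these lists were chosen with earlier results of the data known, and their counts are a description.

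Short motifs were searched in the 300 bases round each peak centre, on both strands. Those without a gap were ETS (CCGGAAG), PU.1 (GAGGAAG), RUNX (TGTGGTT), E-box (CACGTG), GC box (GGGCGG) and CCAAT, and AP-1 was TGANTCA, where N is any base. The longer ones were NF-kB (GGGA, any base, T, any 2 bases, CC), ISRE (GAAA, any 2 bases, GAAA), EICE (GGAA, any 2 bases, GAAA) and CTCF (CCAC, any base, AGG, any base, GGC). Some can overlap, such as ISRE and EICE. The GC box was found in 29.4% of noncoding exons and 17.8% of all peaks, and CTCF in 4.41% and 2.21%. CCAAT was found in 23.6% and 31.2%, AP-1 in 8.22% and 10.8%, and ETS in 6.02% and 3.75%. The median GC content was 55.0% in noncoding exons and 48.3% in all peaks. Over 1 kb from a start, CTCF letters were in 6.24% of noncoding exons and 2.51% of all peaks. The GC box was there in 12.7% and 8.66%, and within 1 kb in 55.7% and 62.8%. ETS letters were in 2.40% and 1.55% over 1 kb from a start, and within 1 kb in 11.7% and 14.6%, so fewer noncoding exons held them there. AP-1 was in 11.5% and 12.2% over 1 kb from a start, and in 3.03% and 3.78% within it.

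Of the 108 noncoding exons that were higher, 6.48% held the NF-kB letters, 13.9% AP-1 and 14.8% PU.1, and of the 104 that were lower 1.92%, 8.65% and 24.0%. Over all peaks the higher ones held 8.40%, 13.6% and 13.7%, and the lower ones 3.45%, 10.0% and 18.8%. RUNX letters were in 13.9% of higher and 5.77% of lower noncoding exons, and in 11.8% and 9.58% over all peaks. The median GC content was 51.7% in higher and 60.5% in lower noncoding exons, of which 27 and 49 lay within 1 kb of a start. Differences in motif shares were not tested. NF-kB, IRF, PU.1 and RUNX factors are regulators of B cells, and a match is a description of letters, not of binding. In the sequences printed above, the windows of LINC01679, CALHM2 and DOCK8-AS1 hold 1 GC box each and that of DHRS4-AS1 an E-box. The window of C1RL-AS1 holds a PU.1 match and a CCAAT box, and that of FAM30A a CCAAT box.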

How the data were processed

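Per the labels, RNA-seq (poly(A) RNA, stranded kit) and ATAC-seq (50000 cells a library) were made from knockout and wild-type Raji cells, 2 libraries per genotype and assay and 8 in all. According to the submitters' processing notes, the authors used STAR, Bowtie2, featureCounts, HOMER, DESeq2 and the trimmers Trimmomatic, cutadapt and Trim Galore, with GRCh38 or hg38. Tool versions and settings, the counting strand and how peaks were called are not stated there.

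Both tables deposited by the authors are DESeq2 output, per the file headers. Their signal column is the mean normalised count over 4 libraries, and the fold change and its SE are on the log2 scale in the deposited tables. The deposited Wald score equals fold change over SE, and the deposited p-value is two-sided with a Benjamini-Hochberg adjusted value. The other deposited measure is each peak's offset from the nearest start, in bp. Of 25377 deposited RNA rows, 17013 had an adjusted p, and the other rows had a mean of at most 4.30.

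From these, each genotype's fitted count was worked out from mean and fold change, assuming 2 of 4 libraries each. CPM is the mean scaled to the summed mean of the table. An adjusted p under 0.05 over the whole table was the threshold. The planned edgeR test could not be run without counts, so the authors' deposited DESeq2 Wald results stood in its place. Alternatives were a minimum mean of 100, no independent filter, a test against 1.5-fold, statistics scaled by their robust SD (2.46 in ATAC, 1.70 in RNA), centring on the chromosome or on 50 peaks on each side, an adjusted p under 0.01, and pairing or restriction by the transcript's gene. The Wald code was tested on simulated data. Python 3.11.15 with pandas 2.3.3, numpy 2.4.6, scipy 1.17.1 and matplotlib 3.10.9 was used.

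Deposited peak starts were taken as counted from 0: of 35245 peaks whose start and end fix the centre, 21930 matched a RefSeq start read that way and 31 read from 1. Printed starts have 1 added and are 1-based. Sequences came from the hg38 genome.

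Named peaks were the 10 largest increases and decreases of at least median signal, up to 12 same-direction and 6 opposite pairs with RNA, list members and the 5 highest means. Others are said to be picked later. Noncoding exons, gene lists, motifs, printed sequences, the stretches of chromosome and the 0.3 limit for neighbourhoods were chosen with earlier results of these data known.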

Additional observations from a re-analysis of the deposited data

How the results depend on the processing

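No paired analysis was possible because the tables hold no values per library; for the same reason the edgeR test, a replicate block and leaving out each library were not run. Of 212 changed noncoding exons, 149 kept their call and direction at a minimum mean of 100, 191 with chromosome centring, 147 with local centring, 158 at an adjusted p under 0.01, 57 in the 1.5-fold test, 32 with scaled statistics and 212 without the independent filter. Against 108 higher and 104 lower, the minimum mean gave 70 higher, the 1.5-fold test 37 and 20, and scaled statistics 17 and 15, and leaving out transcripts of coding genes gave 61 lower. The share higher among changed peaks was 50.9%, and 64.9% in the 1.5-fold test, against 56.8% and 70.7% over all peaks. RNA rows numbered 9 higher and 8 lower in the 1.5-fold test and 9 and 7 with scaled statistics, against 37 and 42. Same-direction pairs were 24 in the deposited tables, 12 with local centring, 15 at an adjusted p under 0.01, 3 in the 1.5-fold test, 1 with scaled statistics and 12 without transcripts of coding genes. Opposite pairs were 6, and 1, 1 and 3 in the last 3 of these. The median log2 fold change of noncoding exons was -0.03 with chromosome and -0.04 with local centring, against -0.05. Local centring turned SNAPC3 to 0.015, KDM4C to 0.030, XKR6 to -0.018 and LOC645967 to -0.036, where none of them passed. It turned MPC1 to -0.17, CAPN10-DT to -0.28 and DUSP22 to -0.24, which passed in the new direction. Chromosome centring turned DUSP22 to -0.18. The scaled statistics ended the calls of 17 of the 43 named peaks and the 1.5-fold test those of 16. The cause was not tested, beyond fewer peaks tested at a minimum mean and in subsets. Depth limits low peaks, with a median SE of 0.36 below a mean of 100 and 0.13 above it.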
